A study of Mus musculus with 11 samples.

Results

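The 9 genes described here encode the SoxC (Sox4, Sox11, Sox12), SoxE (Sox8, Sox9, Sox10) and SoxF (Sox7, Sox17, Sox18) transcription factors of the mouse. They were taken by name, as 9 of 21705 protein-coding genes with a known start, and all 9 were found in the RNA table and in the gene annotation. The series has 11 samples in 11 groups of 1, so differences could not be checked against replicates, and no p-value or SD is given. H3K4me3, a histone mark of promoters open to transcription, and H3K27me3, the mark of Polycomb repression, were mapped in 3 cell populations by native chromatin immunoprecipitation after micrococcal nuclease digestion. The first population was cap mesenchyme, the nephron progenitors, sorted at E18.5 as Cited1-RFP+ cells from Cited1nuc-TagRFP-T mice of a C57BL/6 and DBA origin kept on C57BL/6J. Ureteric epithelium, the branching tube that forms the collecting ducts, was sorted at E15.5 as Hoxb7-GFP+ cells from Hoxb7myr-Venus/+ mice of a C57BL/6J and CBA/J origin, also kept on C57BL/6J. Wild-type E14 embryonic stem cells of strain 129/Ola at passage 15 were the third population. RNA was total RNA of metanephric mesenchyme and of ureteric epithelium (titled UB and called ureteric bud here), dissected by hand at E11.5 from C57BL/6 wild types. A sort by a Cited1 or Hoxb7 reporter keeps the cells in which that driver is or recently was active, and the RNA was taken several days of development before the marks, so RNA and marks do not describe the same cells. Whether animals were pooled is not given in the sources used here.

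Sox proteins bind the minor groove of DNA through a shared HMG box and bend it, and members of a group often act in place of one another. SoxC factors, encoded by genes without introns, are widely used in progenitors of neurons and of mesenchyme, and in mice loss of Sox4 or Sox11 disturbs kidney development. SoxE factors act in cartilage and testis (Sox9), in neural crest, glia and pigment cells (Sox10), and in the ureteric tip, where Sox8 and Sox9 work downstream of the GDNF receptor Ret. SoxF factors shape blood and lymphatic vessels, and Sox17 is also a factor of endoderm.

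The groups differed in RNA level and in chromatin. SoxC genes were high in both tissues, with H3K4me3 and no H3K27me3 at their starts in all 3 populations. Sox8 and Sox9 were several-fold higher in ureteric bud, while Sox10 was near 0 in both tissues. SoxF genes were low in metanephric mesenchyme and lower in ureteric bud, and carried both marks in every population. RNA levels are in FPKM, fragments per length of transcript and per depth of the library, summed over the transcripts of a gene, and are relative to everything mapped. Each RNA difference is that of log2(FPKM + 1), mesenchyme minus bud, and this scale makes the changes of low genes look smaller than they are. The 4-fold call asked for a size of 2 or more on that scale and for 2 FPKM in the library with more. The start is the outermost annotated one plus and minus 1 kb, and a mark counts as present where a peak reaches 1 bp or more into it. In mixed populations, both marks at a start need not lie in the same cell.

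The tissue labels of the RNA were checked on marker lists. Of 10 nephron progenitor markers 8 were called higher in metanephric mesenchyme, with a median difference of 4.41, led by Eya1 (5.28) and Wt1 (5.26). Crym (1.74) and Cited1 (-1.31) were lowest, so the gene whose reporter marks cap mesenchyme had 2.78 FPKM in the earlier mesenchyme and 8.34 FPKM in ureteric bud. All 8 renal stroma markers were called higher in metanephric mesenchyme (median 4.91, with Pdgfra and Foxd1 lowest, at 25.8 and 22.9 FPKM in metanephric mesenchyme and 0.456 and 0.0301 FPKM in ureteric bud, and Aldh1a2 and Meis2 highest at 5.75 and 5.67), and they summed to 492 FPKM there and 5.25 FPKM in ureteric bud. Of 10 ureteric epithelium markers 9 were called higher in ureteric bud (median -5.69), with Calb1 (-10.16) and Tfap2a (-6.79) lowest and Elf5 (-1.06) and Wnt7b (-2.11) highest. Over 11238 protein-coding genes with 1 FPKM in at least 1 library the median difference was -0.47, and differences are read beside it. The marks gave a less clear picture. H3K27me3 was at 0 of 10 nephron progenitor marker starts in cap mesenchyme and 3 in ureteric epithelium. For ureteric epithelium markers it was at 6 of 10 in each, with H3K4me3 at 6 in cap mesenchyme and 7 in ureteric epithelium. Hoxb7 had H3K4me3 alone in cap mesenchyme and neither mark in ureteric epithelium. The RNA check therefore does not extend to the peak lists. The 6 peak lists held between 12879 and 144362 peaks, and the reads behind them are unknown.

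Promoter sequence (250 bases before to 50 after the start, RefSeq, GRCm38.p6) was listed for 4 of the 9 members, Sox4, Sox11, Sox12 and Sox8. Shown here are 2 SoxC promoters that share their marks and differ in base composition, and the promoter of Sox8, the member with the largest RNA difference. Capitals mark GGGCGG, a GC box, and CCAAT, the CCAAT box, on either strand (CCGCCC and ATTGG on the other), and overlapping matches run together. The windows lie at chr13:28953650-28953949 (Sox4), chr2:152397997-152398296 (Sox12) and chr17:25570637-25570936 (Sox8), all on the minus strand.
Sox4: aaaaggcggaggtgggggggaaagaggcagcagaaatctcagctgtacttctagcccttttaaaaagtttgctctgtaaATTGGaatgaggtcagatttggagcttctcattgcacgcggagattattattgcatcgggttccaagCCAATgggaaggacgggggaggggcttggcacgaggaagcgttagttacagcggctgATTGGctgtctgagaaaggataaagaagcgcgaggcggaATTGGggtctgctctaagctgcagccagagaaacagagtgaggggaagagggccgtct
Sox12: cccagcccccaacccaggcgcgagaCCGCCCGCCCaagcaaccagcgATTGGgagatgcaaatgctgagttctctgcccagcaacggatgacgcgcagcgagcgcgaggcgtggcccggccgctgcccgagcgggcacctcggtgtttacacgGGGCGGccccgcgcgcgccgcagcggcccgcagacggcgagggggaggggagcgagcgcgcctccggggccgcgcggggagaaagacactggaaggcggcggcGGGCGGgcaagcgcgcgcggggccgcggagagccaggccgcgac
Sox8: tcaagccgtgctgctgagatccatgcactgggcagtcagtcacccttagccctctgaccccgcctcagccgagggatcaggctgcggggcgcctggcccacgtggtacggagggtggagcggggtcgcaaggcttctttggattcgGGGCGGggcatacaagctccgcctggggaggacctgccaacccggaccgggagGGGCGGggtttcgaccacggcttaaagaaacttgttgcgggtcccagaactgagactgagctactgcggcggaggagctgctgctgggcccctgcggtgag

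The Sox4 window held 12 CG dinucleotides, more than 47.2% of 21263 protein-coding promoter windows, and the Sox12 window 47, more than 98.2%. Sox8 and Sox11 had 21 each. The median over all windows was 13. Sox4 had 4 CCAAT boxes and no GC box, Sox12 had 1 and 4, Sox11 had 1 and 2, and Sox8 had no CCAAT box and 2 GC boxes. A CCAAT box was found in 38.2% of all windows and a GC box in 46.2%. The letters ACAAT, a core bound by Sox proteins (ATTGT on the other strand), and TATAAA were in none of the 4 windows, against 27.7% and 12.6% of all windows. H3K4me3 alone covered SoxC starts of ordinary as well as of very high CG content.

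Sox4 (chromosome 13: 28948919 to 28953699, mm10) was the most abundant member, at 131 FPKM in metanephric mesenchyme and 158 FPKM in ureteric bud, a difference of -0.26. Sox11 (chromosome 12: 27334268 to 27342718) was at 52.1 FPKM in metanephric mesenchyme and 93.1 FPKM in ureteric bud (-0.83). Sox12 (chromosome 2: 152393611 to 152398046) was at 21.7 and 18.6 FPKM in the same order (0.21). None of the 3 reached the 4-fold call. The direction of Sox4 depends on scale, as its difference was 0.27 once both libraries were set to the same median, and Sox4 and Sox12 lay above the median difference of all genes while Sox11 lay below it. In the authors' deposited table the interval of Sox11 was 45.3 to 58.8 FPKM in metanephric mesenchyme and 83.0 to 103 FPKM in ureteric bud, which do not overlap, although such intervals are no replicate check. For the most abundant transcript of Sox4 and of Sox12 the intervals of the 2 tissues overlapped in the authors' deposited table. Together SoxC made up 94.7% of the FPKM of the 9 members in metanephric mesenchyme and 80.0% in ureteric bud. Sox4 stood above 99.3% of the protein-coding genes with 1 FPKM in at least 1 library in metanephric mesenchyme and above 99.0% of them in ureteric bud.

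Each SoxC gene was spanned by its longest transcript to within 15 bases, as single-exon genes do. Sox4 RNA was spread over 2 transcripts, of 2967 and 4766 bases, and the shorter, which held 87.6 FPKM in metanephric mesenchyme and 102 FPKM in ureteric bud, carries the status LOWDATA in the authors' deposited table. The noncoding gene Gm46405 lies across Sox4 on the same strand, so reads of the pair could be split between them, but Gm46405 itself was listed at 0 in metanephric mesenchyme and at 0.0707 FPKM in ureteric bud. A transcript of 220 bases antisense at the Sox4 locus stood at 5.03 FPKM in metanephric mesenchyme and 18.1 FPKM in ureteric bud.

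**Figure D1:**
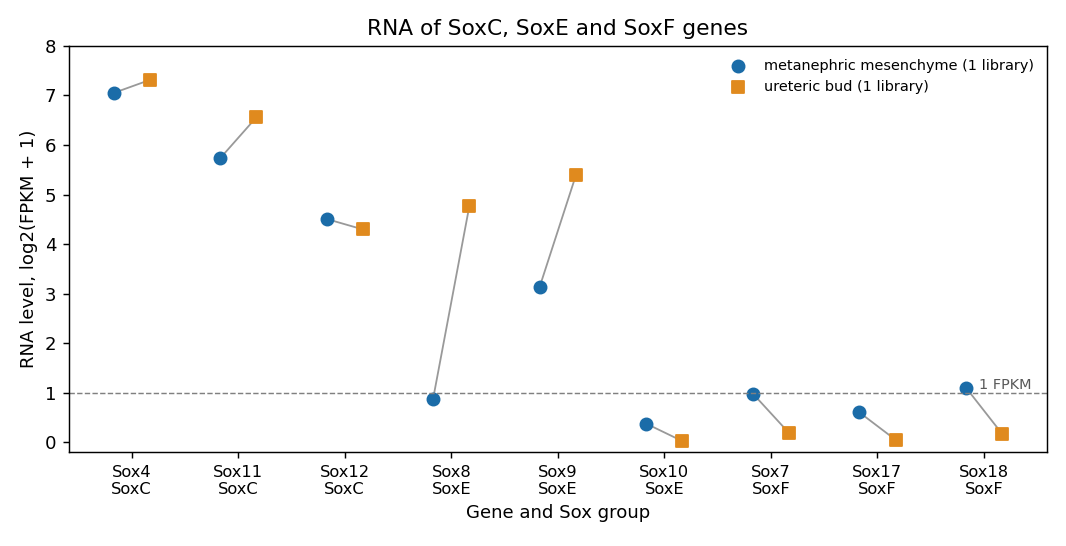
RNA level of the 9 genes on a log2(FPKM + 1) axis, with circles for metanephric mesenchyme and squares for ureteric bud, 1 library each, joined by a line per gene. SoxC genes sit high in both tissues, Sox8 and Sox9 are higher in ureteric bud, and Sox10 and the SoxF genes lie around or under 1 FPKM (dashed).

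All 3 SoxC starts had H3K4me3 without H3K27me3 in each of the 3 populations. This combination is common, being shared by 10221 protein-coding genes or 47.1%. The H3K4me3 peaks of SoxC were wide. At Sox4 the widest was 6622 bp in cap mesenchyme and 6059 bp in ureteric epithelium, while stem cells had 8244 bp. At Sox11 it was 7624, 8065 and 6997 bp in the same order, and at Sox12 it was 7150, 4684 and 7835 bp. The median of the widest peak over protein-coding starts with H3K4me3 was 2352, 2233 and 3020 bp. At least 98.7% of such starts in cap mesenchyme had narrower peaks than each SoxC gene, as did 95.6% in ureteric epithelium and 91.0% in stem cells.

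These peaks ran through the gene. In cap mesenchyme H3K4me3 covered 100% of the Sox4 and Sox12 bodies and 69.6% of Sox11. In ureteric epithelium it covered 100% of Sox4, 66.2% of Sox12 and 75.3% of Sox11, and in stem cells 100%, 100% and 71.7%. Between the populations Sox12 varied most, as the peak ended 2936 bp into the gene in ureteric epithelium, but 4729 bp from the start, past the end of the gene, in cap mesenchyme. H3K27me3 touched a SoxC body in 1 case, at Sox11 in stem cells, where a peak of 1342 bp lay 1704 to 3045 bp into the gene under the H3K4me3 peak. It reaches the start only with a window of 2 kb each side.

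**Figure D2:**
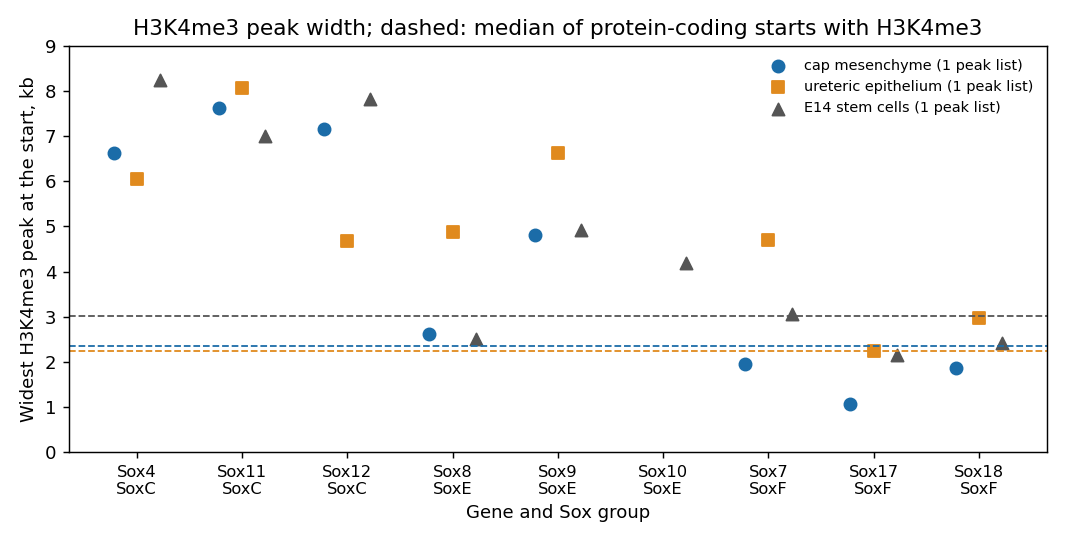
Width in kb of the widest H3K4me3 peak at the start of each gene, with circles for cap mesenchyme, squares for ureteric epithelium and triangles for stem cells, 1 peak list each, and dashed lines for the median over protein-coding starts with H3K4me3. SoxC peaks lie between 4684 and 8244 bp, those of Sox17 between 1071 and 2229 bp, and Sox10 has a peak in stem cells only.

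Sox8 (chromosome 17: 25565893 to 25570686) had the largest RNA difference, with 0.839 FPKM in metanephric mesenchyme and 26.3 FPKM in ureteric bud, a log2 difference of -3.89 and an FPKM ratio of ureteric bud to mesenchyme of 31.3. Sox9 (chromosome 11: 112782210 to 112787757) was at 7.79 FPKM in metanephric mesenchyme and 40.9 FPKM in ureteric bud, a difference of -2.25. Both were called higher in ureteric bud, 2 of the 6 members that reached 1 FPKM, where 4.15% of such protein-coding genes were called in that direction. No member was called higher in metanephric mesenchyme, against 1.84% of protein-coding genes. The call of Sox9 depends on scale, as its difference was -1.77 after both libraries were set to the same median, which left Sox8 as the 1 member called. In the authors' deposited table the intervals of the most abundant transcript did not overlap between tissues for either gene, and those of Sox9 were 6.51 to 9.08 FPKM in metanephric mesenchyme and 36.3 to 45.5 FPKM in ureteric bud.

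Both Sox8 transcripts were higher in ureteric bud. In the authors' deposited table the reference transcript of 2999 bases was at 0.681 FPKM in metanephric mesenchyme and 15.3 FPKM in ureteric bud, and a transcript of 2302 bases with another splice junction was at 0.158 and 11.0 FPKM in that order. Cerox1, a long noncoding RNA gene that starts 125 bases away on the opposite strand, was at 0.321 FPKM in metanephric mesenchyme and 1.92 FPKM in ureteric bud. Its start lies in the same promoter window, so marks at the pair cannot be told apart.

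Sox10 (chromosome 15: 79154913 to 79164490) was at 0.295 FPKM in metanephric mesenchyme and 0.0135 FPKM in ureteric bud, a difference of 0.35 between values under 1 FPKM. In the authors' deposited table its intervals were 0.113 to 0.477 FPKM in metanephric mesenchyme and 0 to 0.0534 FPKM in ureteric bud, which do not overlap. With a pseudocount of 0.1 the difference became 1.80, so its size rests on that choice. Of SoxE, the pair Sox8 and Sox9 was thus higher in ureteric bud, and Sox10 lay close to 0 in both tissues and lower in ureteric bud.

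The marks of the 3 SoxE genes differed too. Sox8 had H3K4me3 without H3K27me3 in cap mesenchyme and in ureteric epithelium, and both marks in stem cells, a combination shared by 4.08% of protein-coding genes. Its H3K4me3 peak was 2608 bp wide in cap mesenchyme (-1359 to 1248 bp from the start, positive into the gene), 4870 bp in ureteric epithelium (-1767 to 3102 bp) and 2515 bp in stem cells. The H3K27me3 of stem cells lay from 330 to 1428 bp and from 1723 to 1969 bp, inside the gene, with scores of 58.8 and 46.6. Both scores were under the median of 69.6 of that list, and the call is lost with peaks over at least 50% of the window or with the upper 50% of scores.

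Sox9 had both marks in all 3 populations by the presence rule, but the extent of H3K27me3 differed. In cap mesenchyme 4 small peaks lay from -2040 to -866 bp, and in ureteric epithelium 1 peak lay from -1576 to -972 bp with a score of 34.5, under the median of 39.3 of its list. They covered 6.75% and 1.45% of the window at the start. In stem cells H3K27me3 covered 29.1% of that window and 68.8% of the gene body, in peaks from -2148 to -419 bp and, in 3 pieces, from 1294 to 5345 bp that left the start itself free. Its body had no H3K27me3 in either kidney population. With a window of 500 bp each side neither kidney population had the mark at Sox9, and in ureteric epithelium it is also lost at a score of at least 50. H3K4me3 at Sox9 was 4810 bp wide in cap mesenchyme and 6635 bp in ureteric epithelium, while stem cells had 4913 bp, and it covered 64.1%, 90.2% and 63.2% of the body.

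Sox10 had H3K27me3 and no H3K4me3 in cap mesenchyme and in ureteric epithelium, a combination that with both marks in stem cells is shared by 49 protein-coding genes or 0.226%. Its best H3K27me3 score was 443 in cap mesenchyme and 186 in ureteric epithelium, above 98.6% and 99.0% of the peaks of their lists. In stem cells an H3K4me3 peak of 4196 bp with a score of 142 and an H3K27me3 peak of 2153 bp with a score of 49.8 lay over the start. Those 2 were weak within their lists, at the 38.5 and 26.0 percentile. The H3K4me3 call is lost with the upper 50% of scores or at equal list length, and the H3K27me3 call with the upper 50% of scores or at a score of at least 50.

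**Figure D3:**
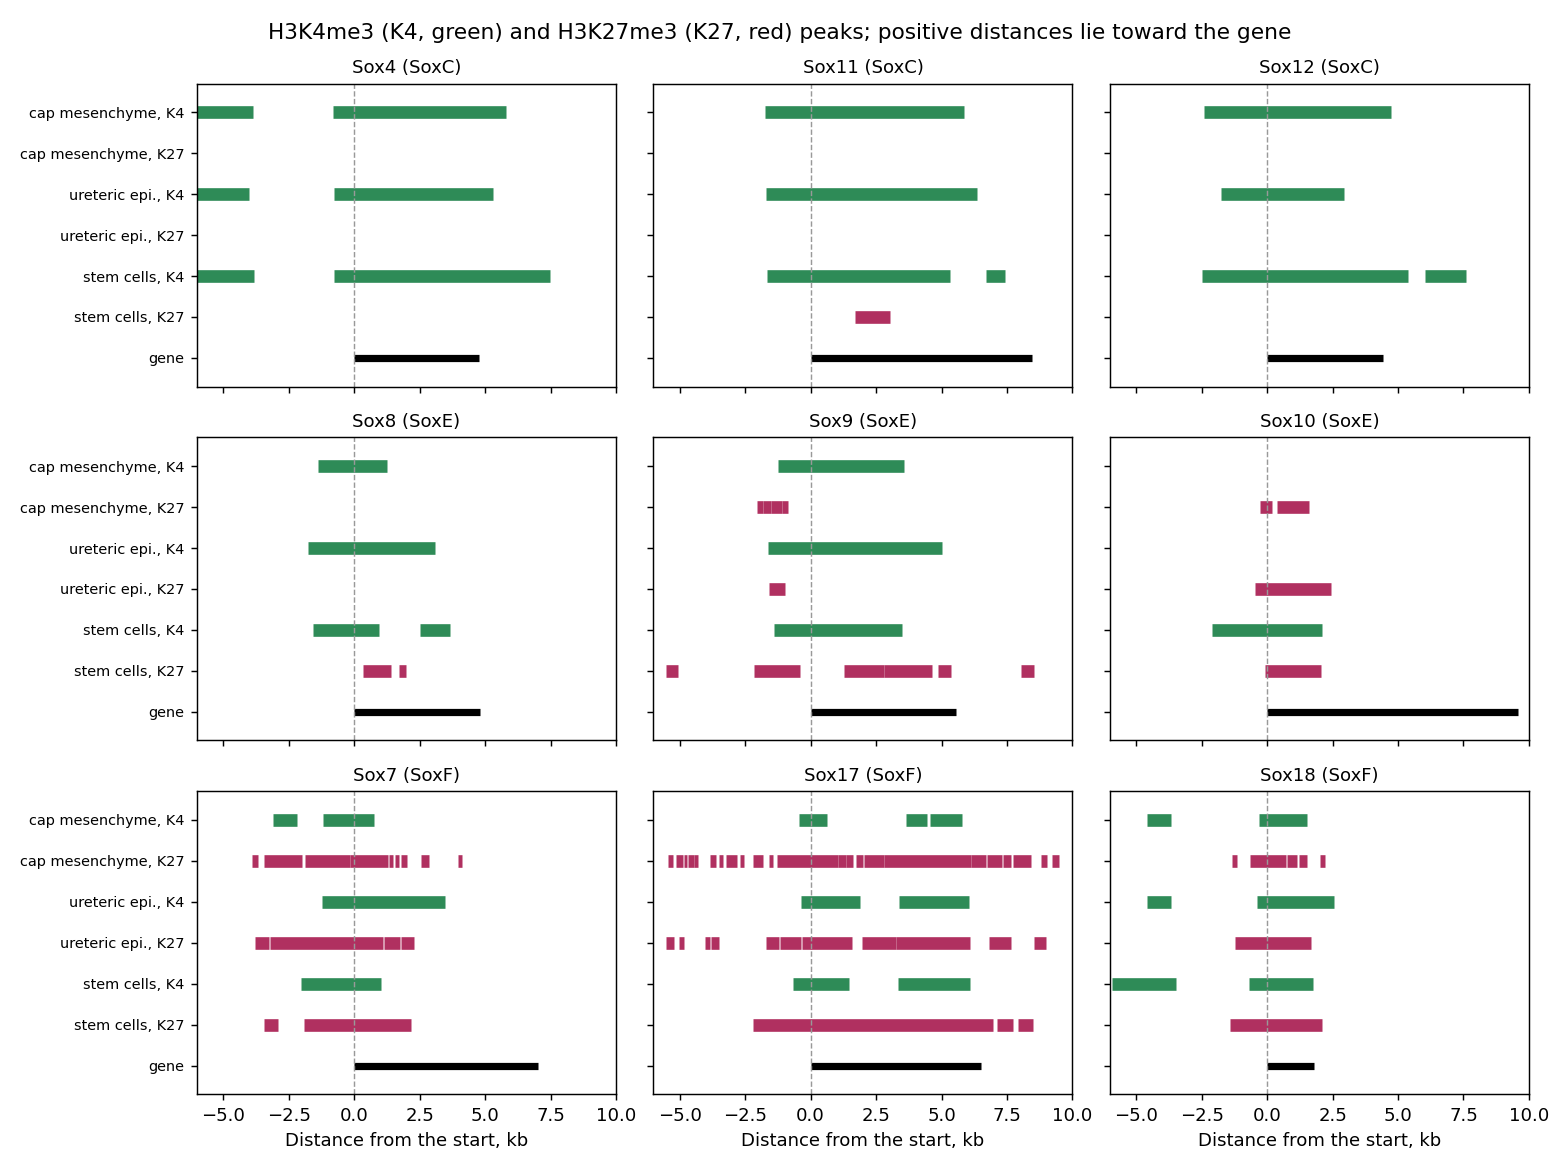
Peaks of H3K4me3 (green) and H3K27me3 (red) in the 3 populations against the distance from the start in kb, 1 panel per gene, with the gene as a black bar and peaks clipped at the ends of the axis. SoxC panels hold wide green peaks with 1 red peak in stem cells at Sox11, Sox10 has no green peak in the kidney populations, and at the SoxF genes red and green lie over each other in every population.

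Sox18 (chromosome 2: 181669837 to 181671640) was at 1.15 FPKM in metanephric mesenchyme and 0.124 FPKM in ureteric bud, a difference of 0.93. Sox7 (chromosome 14: 63943706 to 63950732) was at 0.975 FPKM in metanephric mesenchyme and 0.137 FPKM in ureteric bud (0.80). Sox17 (chromosome 1: 4490928 to 4497426) was at 0.518 and 0.0330 FPKM in the same order (0.56). All 3 were higher in metanephric mesenchyme and none was called. Each lay under 2 FPKM in both tissues, where a difference of 2 on this scale cannot be reached, so the call was out of reach for them. Without the minimum FPKM the number of members called higher in metanephric mesenchyme was also 0. Sox18 passed 1 FPKM in 1 library, Sox7 lay just under it, and Sox17 was further below. With a pseudocount of 0.1 the differences became 2.48, 2.18 and 2.22, so their size rests on that choice. In the authors' deposited table the intervals of Sox7 were 0.631 to 1.32 FPKM in metanephric mesenchyme and 0.0172 to 0.256 FPKM in ureteric bud, and those of Sox18 were 0.639 to 1.66 FPKM and 0 to 0.285 FPKM in the same order, so neither pair overlapped. Of the 9 Sox17 transcripts only 3 had a value above 0 in metanephric mesenchyme, and 2 others had one in ureteric bud. Of those 3, 1 at 0.226 FPKM carries the status LOWDATA in the authors' deposited table, and 1 was at only 1.6e-05 FPKM.

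SoxF factors act in vessel cells, so genes of those cells were read beside them. Of 16 endothelial genes 3 were called higher in metanephric mesenchyme and none in ureteric bud, and the median difference of the 14 at 1 FPKM or more was 1.45, beside -0.47 over all genes. The 2 highest were Kdr, the VEGF receptor (8.87 FPKM in metanephric mesenchyme and 0.868 FPKM in ureteric bud, difference 2.40), and Cdh5, the cadherin of vessel junctions (7.97 and 0.760 FPKM, 2.35). The 2 lowest were Notch4 (0.54) and Egfl7 (0.05). No endothelial gene was at 0, and the list summed to 55.9 FPKM in metanephric mesenchyme and 13.2 FPKM in ureteric bud. Egfl7 alone made up 7.10 FPKM of the sum in metanephric mesenchyme and 6.81 FPKM in ureteric bud. Blood markers summed to 139 FPKM in metanephric mesenchyme and 15.4 FPKM in ureteric bud, with 2 of 8 called higher in mesenchyme (the haemoglobins Hba-x at 3.64 and Hbb-y at 2.67, with Alas2 next at 1.18) and Gata1 at 0 in ureteric bud. The part of vessel and blood cells in the SoxF levels was not tested, and in bulk tissue fewer cells of a type and less RNA per cell cannot be told apart.

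All SoxF starts carried both marks in each population. With Sox9 they made up the 4 of 9 members with both marks in cap mesenchyme and in ureteric epithelium, where 5.92% and 6.49% of protein-coding genes had both. In stem cells 6 of 9 members had both marks, against 11.2% of protein-coding genes. Both marks in all 3 populations were found at 507 protein-coding genes, or 2.34%. At Sox7 H3K27me3 covered 99.8% of the window at the start in cap mesenchyme and 100% of it in the other 2 populations. At Sox17 it covered 100%, 98.0% and 100% in the same order, and at Sox18 81.7%, 100% and 100%. The best scores were high within the kidney lists, above 98.5% to 99.7% of peaks in cap mesenchyme and above 98.7% to 99.7% in ureteric epithelium. In stem cells Sox17 and Sox7 were above 99.6% and 96.9%, while the Sox18 peak was above 68.7%.

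Sox17 had the most extended H3K27me3 of the members. In stem cells 1 peak of 9158 bp covered the whole gene, and in cap mesenchyme and ureteric epithelium the mark covered 96.6% and 87.7% of the body. Within 5 to 20 kb of the start, outside the gene for the most part, it still covered 17.4% of bases in cap mesenchyme and 12.2% in ureteric epithelium, while stem cells had 10.5%, more than at 98.7%, 96.4% and 97.3% of protein-coding genes. At Sox7 and Sox18 that ring held none in any population. H3K4me3 at Sox17 lay in separate blocks, one at the start and others between 3327 and 6106 bp into the gene, in all 3 populations. The start block was 1071 bp wide in cap mesenchyme and 2229 bp in ureteric epithelium, while stem cells had 2152 bp. Its scores in the kidney populations, 145 and 273, fall in the lower 50% of their lists, so it is lost there with the upper 50% of scores.

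**Figure D4:**
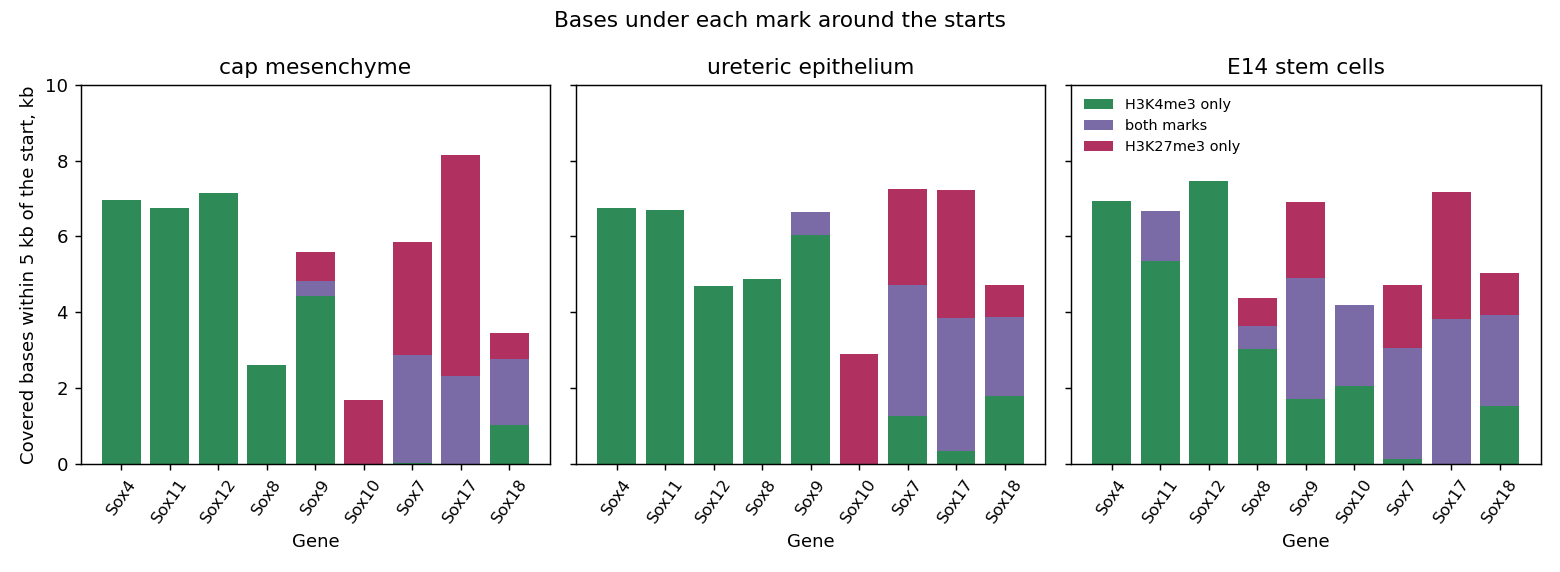
Covered bases in kb within 5 kb of each start, stacked as H3K4me3 only, both marks and H3K27me3 only, with 1 panel for each population. SoxC bars are H3K4me3 only apart from Sox11 in stem cells, SoxF bars hold 1731 to 3826 bp under both marks, and Sox9 has 3198 bp under both in stem cells against 385 bp in cap mesenchyme and 605 bp in ureteric epithelium.

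Base by base, most H3K4me3 at SoxF lay under H3K27me3. Within 5 kb of the start H3K27me3 covered 99.8% of the H3K4me3 bases at Sox7 in cap mesenchyme and 73.2% in ureteric epithelium, while stem cells had 96.4%. At Sox17 the shares were 100%, 91.7% and 100%, and at Sox18 62.7%, 54.0% and 61.4%. Each was above the median over protein-coding genes with both marks, 35.0% of 1284 genes in cap mesenchyme, 40.2% of 1409 in ureteric epithelium and 47.0% of 2431 in stem cells. At Sox9 both marks shared 385 of 4810 H3K4me3 bases in cap mesenchyme, 605 of 6634 in ureteric epithelium and 3198 of 4913 in stem cells, a share of 65.1%. In the kidney populations they met upstream of the start.

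Counted over the 9 members, H3K4me3 was at 8 starts in cap mesenchyme and 8 in ureteric epithelium, while stem cells had 9, beside 63.9%, 60.0% and 67.8% of protein-coding genes. H3K27me3 was at 5, 5 and 6 starts, beside 7.70%, 11.0% and 11.9%. The members are thus marked by H3K27me3 more often than protein-coding genes at large, in SoxE and SoxF and at no SoxC start. This is not particular to them, as the 11 other Sox genes had H3K27me3 at 5, 5 and 6 starts in the same order. By the presence rule no member had a different set of marks in cap mesenchyme and in ureteric epithelium. With the upper 50% of scores or a score of at least 50, Sox9 kept H3K27me3 in cap mesenchyme and lost it in ureteric epithelium. Equal sets are common, as 47.1% of protein-coding genes had H3K4me3 alone in all 3 populations. The full share with equal sets in both kidney populations was not counted, so the agreement is not read as a trait of the members. RNA of Sox8 and Sox9 differed between the earlier tissues. The width of H3K4me3 differed between the populations. It was wider in ureteric epithelium than in cap mesenchyme at 6 of the 8 members with a peak in both, where 25.0% of 12876 protein-coding genes were wider in ureteric epithelium. The 6 were Sox11 and the 5 SoxE and SoxF members with a peak in both, and the log2 ratio of cap mesenchyme to ureteric epithelium was -1.26 at Sox7, -1.06 at Sox17, -0.90 at Sox8, -0.67 at Sox18, -0.46 at Sox9 and -0.08 at Sox11. It was 0.13 at Sox4 and 0.61 at Sox12. Wider peaks in ureteric epithelium were thus found both at Sox8 and Sox9, higher in ureteric bud RNA, and at the SoxF genes, lower there. A wider peak did not always score higher within its list. From cap mesenchyme to ureteric epithelium the score percentile fell from 77.7 to 53.0 at Sox8, 60.2 to 55.2 at Sox7 and 61.6 to 52.3 at Sox18. It rose from 30.1 to 46.6 at Sox17 and from 86.4, at the ceiling score, to 98.8 at Sox9. Of the 16 endothelial genes 15 had H3K4me3 at the start in ureteric epithelium, 8 in cap mesenchyme and 11 in stem cells, and the part of vessel cells in the SoxF widths was not tested. Both kidney populations were sorted by a reporter, Hoxb7 or Cited1, and how many vessel cells they still held is unknown.

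Genes of the settings in which the groups act were read beside them. Of 12 Ret signalling genes, the ureteric setting of Sox8 and Sox9, 9 were called higher in ureteric bud and 1, the ligand Gdnf, in metanephric mesenchyme, and the median difference was -2.92. The lowest difference was that of Ret (0.341 FPKM in metanephric mesenchyme and 72.8 FPKM in ureteric bud, -5.78). The highest were Gdnf (3.46) and Mmp14 (-0.02). Ret, Gdnf, Cxcr4 and Myb had the marks of Sox8, with H3K4me3 only in both kidney populations and both marks in stem cells.

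Of 10 cartilage matrix genes, several of them targets of Sox9 in cartilage, 1 was called, Col9a1, higher in metanephric mesenchyme (12.9 FPKM in metanephric mesenchyme and 0.631 FPKM in ureteric bud), and the median difference of the 4 at 1 FPKM or more was -0.03. Col2a1, the main collagen of cartilage, was at 16.7 and 14.3 FPKM in the same order (0.21), and the lowest were Hapln1 (-1.69) and Col11a1 (-0.27).

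Neural crest and glia genes are the setting of Sox10, and 3 of 12 were called. Ngfr was called higher in metanephric mesenchyme (3.98), and Erbb3 (-4.94) and Ednrb (-2.77) in ureteric bud. The median difference of the 5 genes with 1 FPKM in at least 1 library was 0.67. Dct was at 0 in both tissues, and Foxd3, Fabp7 and S100b were at 0 in ureteric bud. The list of 12 summed to 23.0 FPKM in metanephric mesenchyme and 53.1 FPKM in ureteric bud, of which Erbb3 made up 35.3 FPKM in ureteric bud. The part of such cells in the low Sox10 level was not tested.

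Neuronal genes, a setting of SoxC, had 1 of 8 called, Stmn2, higher in metanephric mesenchyme (2.08), and a median difference of 0.39 over the 7 at 1 FPKM or more. Elavl4 (1.82) came next, and the lowest were Gap43 (-1.60) and Tubb3 (-0.91). Tead2, a SoxC target in mice, was at 56.5 FPKM in metanephric mesenchyme and 58.6 FPKM in ureteric bud.

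At their starts, the lists carried H3K27me3 at 7 of 16 endothelial genes in cap mesenchyme and 6 in ureteric epithelium, while stem cells had it at 7. Ret signalling genes had it at 2, 3 and 7 of 12 starts in the same order of populations, and the neural crest and glia genes at 3, 4 and 5 of 12. Cartilage matrix genes had it at 2, 3 and 4 of 10, and neuronal genes at 3, 4 and 0 of 8. H3K4me3 was at 12, 11 and 11 starts of the Ret signalling genes, 8, 5 and 10 of the neural crest and glia genes, 8, 5 and 8 of the cartilage matrix genes and 8, 4 and 7 of the neuronal genes. Over protein-coding genes, in the same order of populations, H3K27me3 was at 7.70%, 11.0% and 11.9% of starts and H3K4me3 at 63.9%, 60.0% and 67.8%.

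**Figure D5:**
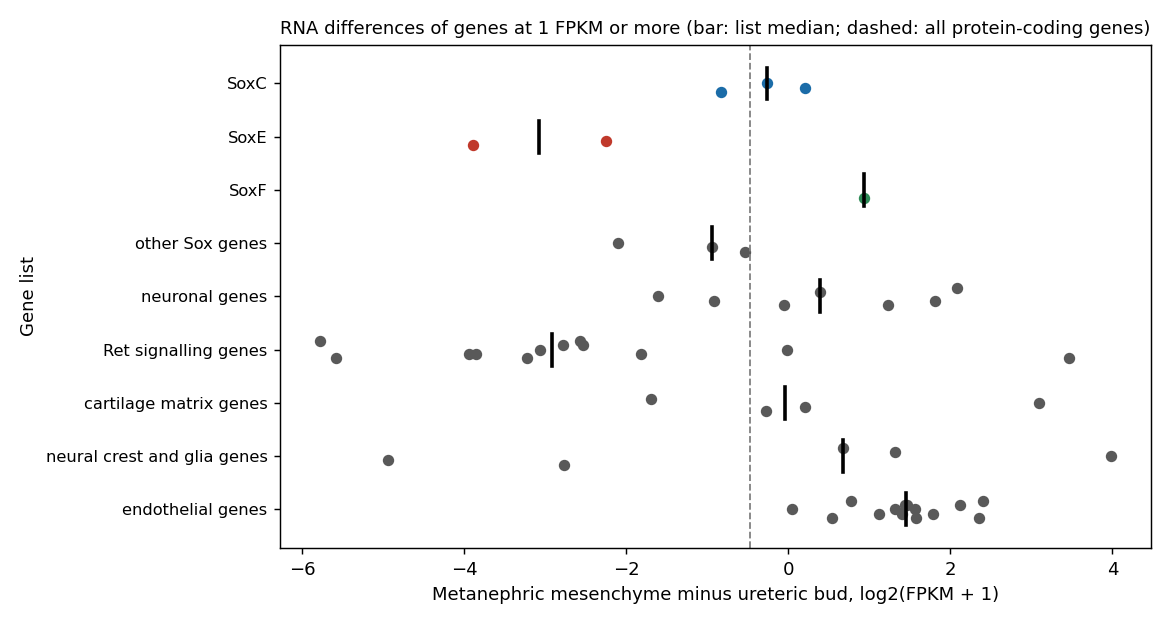
RNA difference of each gene at 1 FPKM or more in either library, on the log2(FPKM + 1) scale, mesenchyme minus bud, by list, with a black bar for the list median and a dashed line at the median of all protein-coding genes (-0.47). Sox8 (-3.89) and Sox9 (-2.25) lie within the wide range of the Ret signalling genes, -5.78 to 3.46 with a median of -2.92. The endothelial genes lie between 0.05 and 2.40, a range that holds Sox18 (0.93) and also Sox12 (0.21).

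The other 11 Sox genes held less RNA than SoxC, summing to 8.50 FPKM in metanephric mesenchyme and 19.1 FPKM in ureteric bud against 205 and 269.7 FPKM for the 3 SoxC genes. The SoxD genes Sox5, Sox6 and Sox13 were the 3 at 1 FPKM or more. Sox6 was called higher in ureteric bud (0.641 FPKM in metanephric mesenchyme and 6.05 FPKM in ureteric bud, -2.10), and Sox5 (-0.95) and Sox13 (-0.53) were not called. Sox5 and Sox6 had the same marks as Sox8. Of the SoxB genes, Sox1 and Sox21 had both marks in all 3 populations, as SoxF did, with RNA at 0 apart from 0.00828 FPKM of Sox21 in metanephric mesenchyme.

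Genes with the same 6 mark calls as a member and the nearest RNA levels were Susd1, Cthrc1 and Cobll1 for Sox8, among 626 candidates, at distances of 0.29, 0.42 and 0.43 over the 2 libraries on the log2 scale. Sox18 was nearest to Shox2 (0.04), Hecw2 and Pak7, among 124 candidates. Sox9 had no close neighbour among the same 124, the nearest being Arhgef7 at 1.40, Cops7a and Dgkz. For SoxC there were 8927 candidates, and the nearest were Ddx17, Ranbp1 and Top2a for Sox4, Eif3b, Drosha and Uqcrb for Sox11, and Aspm, Slc25a46 and Hook3 for Sox12, all within 0.14.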

How the data were processed

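The deposited files were the authors' 6 peak lists and their Cuffdiff table of transcripts. The tools named per the submitters' processing notes are Bowtie2, MACS, TopHat, Cufflinks and Cuffdiff, and the build is mm10. Their roles, versions, settings, controls, pooling and animals behind a library are not given in the sources used here, and the 3 input libraries were not analysed here. The authors deposited FPKM values with interval bounds, 1 column per tissue, and a score per peak whose meaning is not stated. Scores are the authors' own, reach a ceiling near 3100, and were used within a list. Depth is unknown for both data types.

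An accession tied 106342 of 138486 transcripts to a gene and the locus another 17906, and FPKM were summed per gene. Antisense transcripts and those without a reference stayed out. Gene positions are RefSeq's (GRCm38.p6, the coordinates of mm10). Strand was listed for 4 members and inferred for 5 from the order of loci, which gave the listed strand for all 24308 genes that had both. Background shares are over protein-coding genes. Percentiles give the share of peaks or genes with a lower value. The gene lists had fixed members, and the genes named from each were the 2 highest and 2 lowest differences at 1 FPKM or more, besides others named for marks or RNA at 0 after their values were seen. Some single-gene results under this rule are not reported here. Members and lists were chosen with earlier results of these data known. Python 3.11.15, pandas 2.3.3 and numpy 2.4.6 were used, and the counting of covered bases and of calls was tested on simulated data. Alternatives were other windows, overlaps, score limits, list lengths, pseudocounts, minimums, scales, folds and the most abundant transcript alone.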

Additional observations from a re-analysis of the deposited data

How the results depend on the processing

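Of the 46 counts of members under alternatives, 45 stayed within 1.5 times. That limit passes H3K27me3 in stem cells falling from 6 starts to 4, and the call in metanephric mesenchyme at 0 throughout. The exception was the number of members called higher in ureteric bud, which was 1 in place of 2 once both libraries were set to the same median, since Sox9 was then at -1.77. That scaling shifts every difference by 0.53 at high levels, and it turned the uncalled difference of Sox4 to 0.27. The RNA differences of single members were less stable, as 14 were counted as moved under alternatives and 13 as the same. At Sox17 the difference went from 0.56 to 2.22 with a pseudocount of 0.1. Of 324 calls of a mark at a member's start under 6 alternatives, 18 changed, 9 of them at Sox9 and 4 at Sox10. Beside those named with the results, H3K27me3 at Sox9 is lost in every population with peaks over at least 50% of the window, in both kidney populations at equal list length, and in ureteric epithelium with the upper 50% of scores. No paired analysis was possible because each group holds 1 sample, and none could be left out. The unknown depth limits low values, among them the RNA of Sox10, Sox7, Sox17 and Sox18.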

Other observations

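Transcribed DNA without a gene name lay upstream of Sox12 and Sox17. At Sox12, 2 transcripts without a reference began 738 and 2287 bp from the start, 1 of 487 bases at 3.65 FPKM in metanephric mesenchyme and 2.30 FPKM in ureteric bud, and 1 of 184 bases at 15.1 and 1.53 FPKM in the same order. At Sox17, 2 such transcripts, of 232 and 347 bases, lay 25585 and 28484 bp from the start, at 13.1 and 3.63 FPKM in metanephric mesenchyme and 8.73 and 5.42 FPKM in ureteric bud, where Sox17 itself was at 0.518 and 0.0330 FPKM. The number of fragments behind such short transcripts is unknown. Of the annotated noncoding neighbours within 10 kb of a start, Gm30855, 2436 bases from Sox11 on the opposite strand, was at 0.106 FPKM in metanephric mesenchyme and 0.0986 FPKM in ureteric bud, and Gm10863, 1576 bases from Sox10 on the opposite strand, was listed at 0 in both.

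A second H3K4me3 peak upstream of Sox4 was present in all 3 populations, from -6641 to -3858 bp in cap mesenchyme, -6464 to -4010 bp in ureteric epithelium and -6627 to -3833 bp in stem cells. The noncoding gene Gm52067, on the opposite strand, starts at -6554 bp, inside the peaks of cap mesenchyme and stem cells. Gm46405 starts at -6974 bp, just outside the peak. Upstream of Sox18 a second H3K4me3 peak lay from -4575 to -3679 bp in cap mesenchyme, -4578 to -3676 bp in ureteric epithelium and -5928 to -3484 bp in stem cells. In stem cells an H3K27me3 peak of 306 bp, from -6819 to -6514 bp, met the outer edge of the Sox4 one. The Sox18 stretches held no H3K27me3 peak in any population.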
